A study of Mus musculus with 14 samples.

Results

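Scavenger receptors are surface proteins with which macrophages bind and take up modified lipoproteins, dying cells and other debris. The 10 genes described here were taken from the table by symbol: Cd36, Scarb1, Scarb2, Msr1, Marco, Olr1, Cd163, Cd68, Lrp1 and Vldlr. All 10 were found among the 17890 genes of the expression table, where they held 32 of 60072 transcript rows. The receptors do not form 1 protein family. Class B receptors (Cd36, Scarb1, Scarb2) cross the membrane at both ends of the protein and bind lipoproteins and fatty acids, or serve in lysosomes. Class A receptors (Msr1, Marco) are collagen-like trimers that bind modified LDL and microbes. Olr1 is a lectin-like receptor for oxidized LDL, Cd163 takes up haptoglobin-bound haemoglobin, and Cd68 sits mainly in lysosomes and late endosomes. Lrp1 and Vldlr belong to the LDL receptor family. Macrophages that take up more cholesterol than they release become foam cells, the process for which several of these receptors are best known.

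In GRCm38, the class B genes lie at chr5:17781690-17888959 (Cd36), chr5:125277087-125341094 (Scarb1) and chr5:92441311-92505657 (Scarb2), and the class A genes at chr8:39543232-39642750 (Msr1) and chr1:120474538-120505024 (Marco). Olr1 (chr6:129479150-129507350) and Cd163 (chr6:124304636-124330529) share a chromosome. Cd68 lies at chr11:69664213-69666170, Lrp1 at chr10:127538157-127621148 and Vldlr at chr19:27216480-27254231.

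The RNA came from cells labelled as macrophages derived from bone marrow, grown for 7 days with M-CSF, the growth factor that drives macrophage differentiation, in medium with 5 mmol/L glucose. Diabetic donors were male C57BL/6J mice, 8 weeks old at the start, made diabetic with streptozotocin, a toxin of pancreatic beta cells. They had 42 to 45 mg/kg of it daily for 5 days, a blood glucose over 16.9 mmol/L as the criterion, and 6 weeks of hyperglycaemia before the marrow was taken. Healthy donors were of the same sex, strain and starting age; whether they had vehicle injections is not given in the sources used here. The table holds 4 libraries named D and 4 named M. D matches the initial of diabetic, while M was matched to healthy by elimination because no label explains the letter. All directions below compare D with M; if the letters were assigned the other way, each sign would flip. Replicates are not said to come from separate animals, so p-values set the group difference only against the spread between these libraries. That spread may be technical. Another 6 samples, of a second phase, were not analysed here.

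Sequences that bear on the results come first, beginning with promoters. Windows of 250 bases before to 50 after a start site were read from RefSeq (GRCm38.p6), which gave 9 windows for 8 of the 10 members; Msr1 and Scarb1 had none. The Cd36, Olr1 and Cd68 windows are shown because Cd36 and Olr1 are the called members that have a window, and Cd68 was the most abundant member. Capitals mark motifs: in Cd36 the half-site AGGTCA of nuclear receptors on the opposite strand, in Olr1 that half-site followed by TGAGTCA, the AP-1 motif, and in Cd68 TGAGTCA, a C/EBP-type match to TTGCNNAA, and TGAGTCA again. All 3 genes lie on the minus strand, and the sequences read 5′ to 3′ along the gene.
Cd36, chr5:17835847-17836146: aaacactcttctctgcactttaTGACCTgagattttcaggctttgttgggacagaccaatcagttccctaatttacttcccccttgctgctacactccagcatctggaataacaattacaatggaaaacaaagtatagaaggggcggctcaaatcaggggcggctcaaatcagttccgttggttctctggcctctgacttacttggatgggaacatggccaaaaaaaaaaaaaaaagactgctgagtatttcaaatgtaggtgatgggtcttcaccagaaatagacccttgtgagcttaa
Olr1, chr6:129507116-129507415: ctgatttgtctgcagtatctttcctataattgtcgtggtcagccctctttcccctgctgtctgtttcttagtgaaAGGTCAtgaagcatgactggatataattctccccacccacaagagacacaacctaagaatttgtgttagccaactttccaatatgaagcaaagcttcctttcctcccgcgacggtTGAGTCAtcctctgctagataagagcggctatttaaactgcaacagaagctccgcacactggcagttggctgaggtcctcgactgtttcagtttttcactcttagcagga
Cd68, chr11:69666121-69666420: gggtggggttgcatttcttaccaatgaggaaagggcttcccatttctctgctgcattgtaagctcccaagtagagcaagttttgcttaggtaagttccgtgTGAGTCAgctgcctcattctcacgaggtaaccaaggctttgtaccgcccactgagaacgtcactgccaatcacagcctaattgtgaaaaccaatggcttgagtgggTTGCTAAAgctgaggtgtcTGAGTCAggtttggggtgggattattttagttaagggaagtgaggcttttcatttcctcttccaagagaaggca
The Cd36 window's start site lies 200 bases upstream of the GENCODE start of the curated transcript NM_007643 and 53063 bases downstream of the outermost start of the RefSeq gene, so it covers 1 of several Cd36 starts. AGGTCA, searched on both strands, stood in the windows of 2 members (Cd36 at -228, Olr1 at -175) and in 16.3% of all 32851 windows. TGAGTCA stood in those of 2 members (Olr1 at -60, Cd68 at -149 and -24), against 5.2% of all windows. TTGCNNAA was found for Cd68 at -43 and Vldlr at -116 (10.8% of all windows), TGACNNNGC, the antioxidant response element, for Scarb2 at -99 and Lrp1 at -160 (12.4%), and GACGTG, the hypoxia element, for Cd163 at +31 (6.38%). GAGGAAGT, a PU.1 motif (3.2%), and TCACGTGA, the CLEAR motif of lysosomal genes (0.974%), were in no member's window. None of these searched motifs overlapped another in a member's window. The Scarb2 and Lrp1 windows were GC-rich, at 67.3% and 67.7% GC, while Cd36 (43.0%), Olr1 (46.0%) and Cd68 (47.7%) lay below the median window (52.7%).

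Next are coding sequences at the point where isoforms part, for Msr1 and Scarb1, whose curated transcripts encode receptors with different ends. Lower-case letters are the last 30 shared coding bases, and capitals are the isoform's own coding bases (the first 60 where there are more), from GRCm38.
Msr1 NM_031195: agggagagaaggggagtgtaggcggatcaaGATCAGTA
Msr1 NM_001113326: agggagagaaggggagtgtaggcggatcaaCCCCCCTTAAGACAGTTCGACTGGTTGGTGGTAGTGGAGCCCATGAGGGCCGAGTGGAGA
Scarb1 NM_016741: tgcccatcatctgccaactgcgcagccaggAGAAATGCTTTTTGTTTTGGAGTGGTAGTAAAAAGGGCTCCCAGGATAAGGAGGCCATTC
Scarb1 NM_001205082: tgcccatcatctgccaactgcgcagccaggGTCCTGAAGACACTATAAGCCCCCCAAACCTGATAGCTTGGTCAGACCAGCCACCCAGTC
Both Msr1 transcripts share 1054 coding bases. The first adds 8 and ends after 354 codons, which is the short form known as type II. The second adds 320 and reaches 458 codons, the type I form with a cysteine-rich domain at its end. Scarb1 NM_016741 encodes 509 codons (SR-BI), and NM_001205082 encodes 506 with another cytoplasmic tail; they part after 1402 shared coding bases.

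The 8 libraries held 19048195 to 20027967 estimated counts, and the first principal component, with 64.7% of the variance, separated D from M, D replicate 1 lying nearest to M (-16.0) and D replicate 3 farthest (-54.5). Of 12839 tested genes, edgeR called 17.4% higher and 17.3% lower in D. The labelled cell type was checked against marker genes. Macrophage genes were present, Csf1r at 209 ± 22.5 CPM in D and 162 ± 9.97 CPM in M (SD, n = 4 each), but 3 of 12 markers (Mertk, Vsig4, Timd4) averaged under 1 TPM. Neutrophil markers summed to 134495 to 194547 TPM in D and 130127 to 131235 TPM in M, against 425 to 617 and 401 to 736 TPM for the macrophage list. B lineage markers, 9 of 12 of them lower in D, summed to 75.9 to 275 TPM in D and 1303 to 1715 TPM in M. Of the dendritic cell markers 5 of 8 were lower (41.6 to 107 TPM in D, 142 to 166 TPM in M), and of the T and NK cell markers 4 of 5 tested were higher (86.5 to 99.8 TPM in D, 59.4 to 66.1 TPM in M). The members were thus measured in mixed material, in which fewer cells of a type and less RNA per cell cannot be told apart.

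Of the 10 receptors, Msr1 and Olr1 rose and Cd36 fell in D libraries. Scarb1, Scarb2, Cd163, Cd68, Lrp1 and Vldlr did not pass the test, and Marco had too few counts for one. The 2 higher and 1 lower of 9 tested members stand against 17.4% higher and 17.3% lower over all tested genes, so the count of calls was near the background. The median log2 fold change of the 9 was 0.15, against -0.03 over all tested genes. The groups did not overlap in CPM for 2 of the 9 (Cd36 and Scarb2), against 34.7% of all tested genes.

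**Figure D1:**
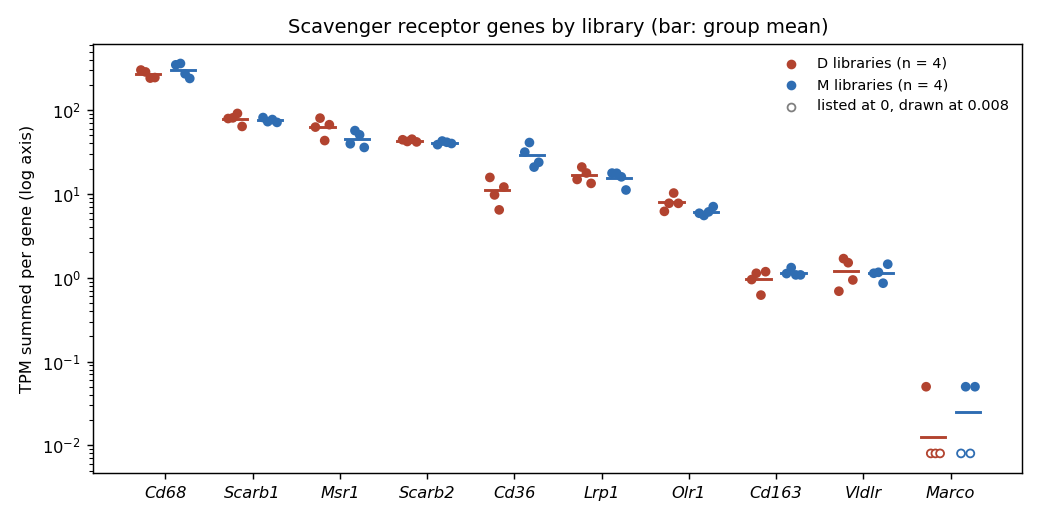
TPM of each receptor gene in every library on a log axis, D libraries (red) left of M libraries (blue), with a bar at each group's mean; open points are libraries listed at 0. Cd68 is the most abundant in both groups, Cd36 is the gene whose D points (6.45 to 15.7 TPM) all lie below its M points (20.9 to 41.0 TPM), and Marco is close to absent.

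Per length, in TPM summed over transcripts, Cd68 was the most abundant receptor, with 268 ± 29.7 TPM in D and 304 ± 58.8 TPM in M (SD, n = 4 each). It made up 54.5% of the members' summed TPM in D and 58.2% in M. Scarb1 came next (78.9 ± 11.3 TPM in D, 75.7 ± 4.58 TPM in M), and then Msr1 (63.3 ± 15.3 TPM in D, 45.8 ± 9.77 TPM in M). In D, neighbours Scarb1, Msr1 and Scarb2 overlapped in their library ranges, as did Lrp1, Cd36 and Olr1, and Vldlr and Cd163. In M, the overlapping neighbours were Msr1 with Scarb2, Scarb2 with Cd36, and Cd163 with Vldlr. Cd36 stood below Lrp1 in the D order and above Lrp1 in the M order. The summed TPM of all 10 was 453 to 530 in D and 431 to 600 in M, so the groups overlapped.

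Among class B receptors, Cd36, which carries long-chain fatty acids and oxidized LDL into cells, was the called member with the largest difference. In D replicates 1 to 4 it had 22.6, 14.4, 10.1 and 18.1 CPM, against 47.0, 58.2, 28.7 and 32.8 CPM in M replicates 1 to 4. Every D library lay below every M library. D averaged 16.3 ± 5.32 and M 41.7 ± 13.5 CPM (SD, n = 4 each), a log2 fold change of -1.35 ± 0.29 (SE; 95% interval -2.02 to -0.69) with an adjusted p of 0.00853 in edgeR's quasi-likelihood test (Benjamini-Hochberg over all tested genes). That is a level in D of 0.391 times the level in M. Counting fewer transcripts ended the call: curated transcripts alone gave -1.66 with an edgeR adjusted p of 0.0564, and the most abundant Cd36 transcript alone gave -0.60 with an edgeR adjusted p of 0.341. The sole curated Cd36 transcript, NM_007643, held 6.82% of Cd36 TPM in D and 8.54% in M, so the curated fit rests on a small part of the gene.

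Cd36 is also known from platelets, endothelium and red cell precursors, so markers of these are given beside it. Over all tested genes 17.3% were lower in D, which is the background for the counts that follow. All 7 megakaryocyte and platelet markers fell in D. They summed to 155 to 305 TPM in D and 501 to 682 TPM in M, with no overlap. Endothelial and stromal markers fell in 6 of 7 tested (33.7 to 47.1 TPM in D, 56.0 to 67.6 TPM in M), and 3 of the 9 averaged under 1 TPM. Erythroid markers summed to 2452 to 12022 TPM in D and 8653 to 17233 TPM in M, with overlap; 1 of 7 fell and 6 did not pass. D replicate 3 had the lowest Cd36 level and the lowest sum of all 3 lists. This was not particular to these lists. Among D libraries, replicate 3 was also lowest in the B lineage (75.9 TPM), dendritic cell (41.6 TPM) and T and NK cell (86.5 TPM) sums. It was highest in the monocyte (6144 TPM) and neutrophil (194547 TPM) sums. The erythroid, endothelial and stromal, dendritic cell, and T and NK cell sums all ordered the D libraries as Cd36 did. For dendritic cell markers, D replicate 1 was at the top with 107 TPM. The other marker sums, platelet markers among them, had another order. D replicate 1, highest of D in Cd36, was also highest of D in the erythroid (12022 TPM) and the endothelial and stromal (47.1 TPM) sums, and stood below D replicate 2 in platelet markers (243 and 305 TPM). The part of these cells in the Cd36 result was not tested.

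**Figure D2:**
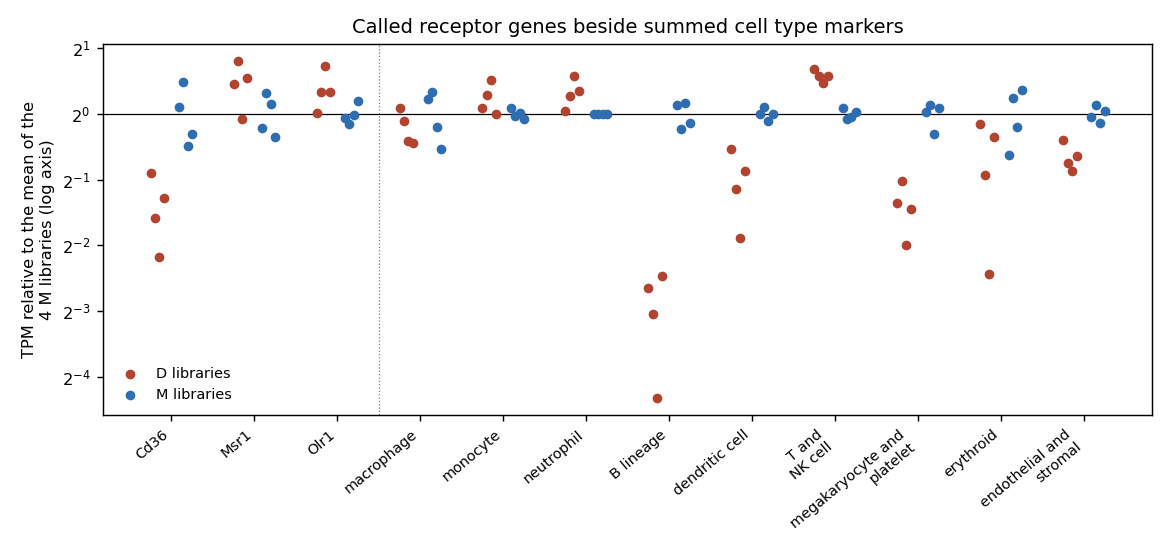
TPM of the 3 called receptor genes, and summed TPM of each cell type's markers, divided by the mean of the 4 M libraries (log axis); D libraries in red are left of M libraries in blue. Cd36 lies below the M points in all 4 D libraries, as do the B lineage, dendritic cell, megakaryocyte and platelet, and endothelial and stromal sums.

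Scarb1, the HDL receptor that exchanges cholesteryl esters, had 106, 109, 133 and 88.6 CPM in D, against 109, 93.9, 98.0 and 91.5 CPM in M. D replicates held both the highest and the lowest value of the 8. The log2 fold change was 0.15 ± 0.11 (SE; 95% interval -0.09 to 0.40; edgeR adjusted p = 0.309). Scarb2, also called LIMP-2, is a lysosomal membrane protein, and had 112, 108, 124 and 109 CPM in D, against 97.9, 104, 99.5 and 97.0 CPM in M. The 4 D libraries lay above the 4 M libraries in CPM but overlapped them in TPM (41.7 to 45.0 in D, 38.7 to 42.8 in M). The difference was small, 0.18 ± 0.07 on the log2 scale (SE; 95% interval 0.04 to 0.33), and missed the threshold at an edgeR adjusted p of 0.0515. DESeq2's Wald test put it at an adjusted p of 0.0159, edgeR with DESeq2 size factors at 0.0364, and edgeR without D replicate 1 at 0.0357.

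Msr1, the class A receptor for acetylated and oxidized LDL, was the larger of the increases. D replicates 1 to 4 had 93.9, 117, 68.6 and 109 CPM, against 53.6, 76.4, 67.2 and 49.7 CPM in M. The groups overlapped through D replicate 3, which lay below M replicate 2. D averaged 97.2 ± 21.4 and M 61.7 ± 12.3 CPM (SD, n = 4 each), a 1.57-fold difference (log2 0.65 ± 0.18 SE; 95% interval 0.25 to 1.06; edgeR adjusted p = 0.0207). The call was lost without D replicate 2 (edgeR adjusted p = 0.0525), M replicate 1 (0.0563) or M replicate 4 (0.0528). It was also lost in limma on log2(TPM + 1), at 0.45 with an adjusted p of 0.0899, and on FPKM, at 0.43 with 0.0932; these values move all genes' median to -0.11 and -0.12. Marco, the other class A receptor and a marker of marginal zone and alveolar macrophages, had 1 count in D replicate 1, 1 in M replicate 2 and 1 in M replicate 4, and 0 in the other libraries. At 3 counts in all, no difference was detectable at this depth, and no fold is given.

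Of the macrophage markers, 7 of 10 tested were higher in D, as Msr1 was, and none lower. Over all tested genes 17.4% were higher, which is the background for each count in this paragraph. Within D the order of libraries differed. The macrophage sum was highest in D replicate 1 (617 TPM) and Msr1 in D replicate 2 (80.3 TPM). Fcgr1, the high-affinity IgG receptor, was at 21.9 ± 3.17 CPM in D and 8.02 ± 1.62 CPM in M (log2 1.45 ± 0.15; edgeR adjusted p = 0.000125). Adgre1, which encodes F4/80, was at 87.3 ± 22.4 CPM in D and 46.7 ± 6.91 CPM in M (0.90 ± 0.18). Trem2, Mertk and Gpnmb did not pass, and Gpnmb, the most abundant of the list, averaged 551 ± 164 CPM in D and 820 ± 294 CPM in M. The summed macrophage TPM of D and M libraries overlapped (425 to 617 against 401 to 736). Monocyte markers rose in 3 of 6 (4285 to 6144 TPM in D, 4080 to 4568 in M) and neutrophil markers in 10 of 13. Among D libraries, Olr1 was highest in D replicate 3 (21.1 CPM) and lowest in D replicate 1 (11.8 CPM). The neutrophil sum was also highest and lowest in these (194547 and 134495 TPM), but ordered D replicates 2 and 4 the other way. The part of cell composition in the Msr1 and Olr1 results was not tested.

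Olr1, which encodes the oxidized LDL receptor LOX-1, had 11.8, 14.7, 21.1 and 14.4 CPM in D, against 11.1, 10.2, 11.1 and 11.9 CPM in M. D replicate 3 was highest, and D replicate 1 lay just below M replicate 4. D averaged 15.5 ± 3.93 and M 11.1 ± 0.716 CPM (SD, n = 4 each), a 1.40-fold difference (log2 0.48 ± 0.16 SE; 95% interval 0.14 to 0.83; edgeR adjusted p = 0.0360). This was the least stable of the 3 calls. It was lost when any of 6 of the 8 libraries was left out, namely D replicate 2 or 4 (edgeR adjusted p = 0.0593 and 0.0508) or M replicate 1, 2, 3 or 4 (0.0764, 0.0937, 0.0726 and 0.0567), while the log2 fold change stayed at 0.44 to 0.54 in these 6 fits. It was also lost with library totals as the only scaling (log2 0.37, edgeR adjusted p = 0.0635), with curated transcripts (log2 0.45, edgeR adjusted p = 0.198) or the most abundant transcript (log2 0.48, edgeR adjusted p = 0.373) alone, and in limma on TPM or FPKM (log2 0.27 to 0.35, adjusted p = 0.0866 to 0.0914). Without D replicate 3 the edgeR call held but the log2 fold change was 0.32.

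Cd163, Cd68, Lrp1 and Vldlr gave no call. Cd68 had 195, 187, 170 and 164 CPM in D, against 225, 226, 167 and 149 CPM in M. Replicates 3 and 4 of M lay below or among the D values, while replicates 1 and 2 lay above them. The log2 fold change was -0.10 ± 0.13 (SE; 95% interval -0.39 to 0.20; edgeR adjusted p = 0.589). Cd163, the haemoglobin-haptoglobin receptor of tissue macrophages, was low, at 2.28 ± 0.542 CPM in D and 2.50 ± 0.245 CPM in M (-0.13 ± 0.20; edgeR adjusted p = 0.641), and rested on 28.6 to 56.6 estimated counts a library. Lrp1, an endocytic receptor for many ligands including apolipoprotein E, was at 139 ± 28.0 CPM in D and 122 ± 25.4 CPM in M (0.19 ± 0.18; 95% interval -0.21 to 0.59; edgeR adjusted p = 0.435). Vldlr, which binds triglyceride-rich lipoproteins and reelin, was at 5.34 ± 2.16 CPM in D and 4.80 ± 1.01 CPM in M (0.15 ± 0.28; 95% interval -0.47 to 0.77; edgeR adjusted p = 0.705). These intervals do not show that the genes were equal. For Vldlr the interval leaves room for a level in D of 0.72 to 1.71 times the level in M.

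**Figure D3:**
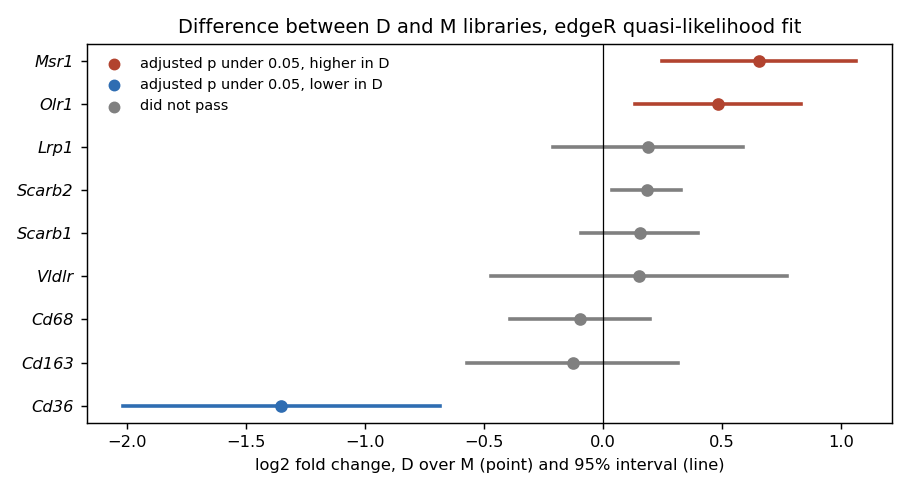
Log2 fold change of D over M libraries for the 9 tested receptor genes (points) with 95% intervals (lines) from the edgeR fit; red marks higher and blue lower in D at an adjusted p under 0.05, grey those that did not pass. Cd36 stands at -1.35, Msr1 and Olr1 at 0.65 and 0.48, and the Scarb2 interval (0.04 to 0.33) lies just above 0.

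Ratios between members within a library do not depend on how libraries are scaled. They are given as a description, since the genes were picked by their calls. Cd36 stood at 25.1, 12.1, 14.9 and 18.0 TPM per 100 TPM of Msr1 in D, against 79.5, 72.0, 41.2 and 66.5 in M. The groups did not overlap. Per 100 TPM of Cd68, Cd36 was at 2.67 to 5.23 TPM in D and 7.70 to 11.4 TPM in M, again with no overlap. Msr1 was at 18.0 to 28.1 TPM per 100 of Cd68 in D and 11.4 to 18.7 in M, and Olr1 at 2.06 to 4.25 in D and 1.53 to 2.95 in M, both with overlap.

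Transcripts were measured with less precision than genes. Of 32 member rows, 16 were curated and 16 predicted RefSeq transcripts, and 21 had enough counts for a test. edgeR called none of the 21 (3 at an unadjusted p under 0.05), against 4.02% called and 15.8% unadjusted over all 32923 tested transcripts. The 3 were Msr1 NM_031195, Cd36 NM_007643 and the sole Scarb2 row. Transcript shares, tested with edgeR's diffSpliceDGE in the 5 members with at least 2 tested transcripts, gave no call and none at an unadjusted p under 0.05 (lowest p 0.238), against 1.88% of all genes tested.

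Msr1 NM_031195, the short form shown above, had 35.0, 42.0, 22.6 and 42.3 TPM in D, against 17.2, 25.8, 23.2 and 17.8 TPM in M. The D libraries lay above the M libraries apart from D replicate 3, which was below M replicates 2 and 3. The log2 fold change was 0.84 ± 0.22 (SE; edgeR unadjusted p = 0.00541, adjusted p = 0.0855). Without D replicate 3 it passed, at 1.01 with an edgeR adjusted p of 0.0410. The long form NM_001113326 averaged 21.5 ± 6.96 TPM in D and 20.5 ± 5.50 TPM in M (0.15 ± 0.28; edgeR adjusted p = 0.927). The short form made up 52.1% to 63.1% of Msr1 TPM in D libraries and 43.3% to 49.6% in M libraries. It stood at 188, 135, 153 and 196 TPM per 100 TPM of the long form in D, against 92.9, 102, 94.7 and 131 in M. These ratios did not overlap, but the usage test of Msr1, over 4 transcripts, gave an unadjusted p of 0.238 and an adjusted p of 1 in edgeR. The predicted XM_006509311 held 7.24% of the mean in D and 5.87% in M.

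The Cd36 counts were spread over 6 of the 12 transcripts that RefSeq lists. The most abundant, predicted XM_006535625, had 11.8, 4.54, 3.60 and 8.90 TPM in D, against 6.43, 12.1, 12.3 and 15.1 TPM in M. These groups overlapped. The curated NM_007643 had 0.84, 0.84, 0.24 and 1.08 TPM in D, against 3.33, 3.96, 1.11 and 1.62 TPM in M, and did not overlap (log2 -1.66 ± 0.63; edgeR unadjusted p = 0.0303, adjusted p = 0.237). Predicted XM_006535621 averaged 2.02 ± 1.10 TPM in D and 7.83 ± 5.98 TPM in M, and XM_006535624 0.838 ± 0.952 TPM in D and 4.28 ± 3.48 TPM in M; neither passed. XM_030254088 was listed at 0 in D replicates 1 to 3 and M replicate 3, and at 0.30 TPM in D replicate 4, against 1.63, 7.14 and 4.20 TPM in M replicates 1, 2 and 4. All 5 of these means were lower in D, and the 6th transcript, XM_006535622, was found only in D replicate 3, at 0.48 TPM. The large share of XM_006535625 (65.4% in D, 39.1% in M) came with a low total in D, and the usage test of Cd36 did not pass (edgeR unadjusted p = 0.408).

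**Figure D4:**
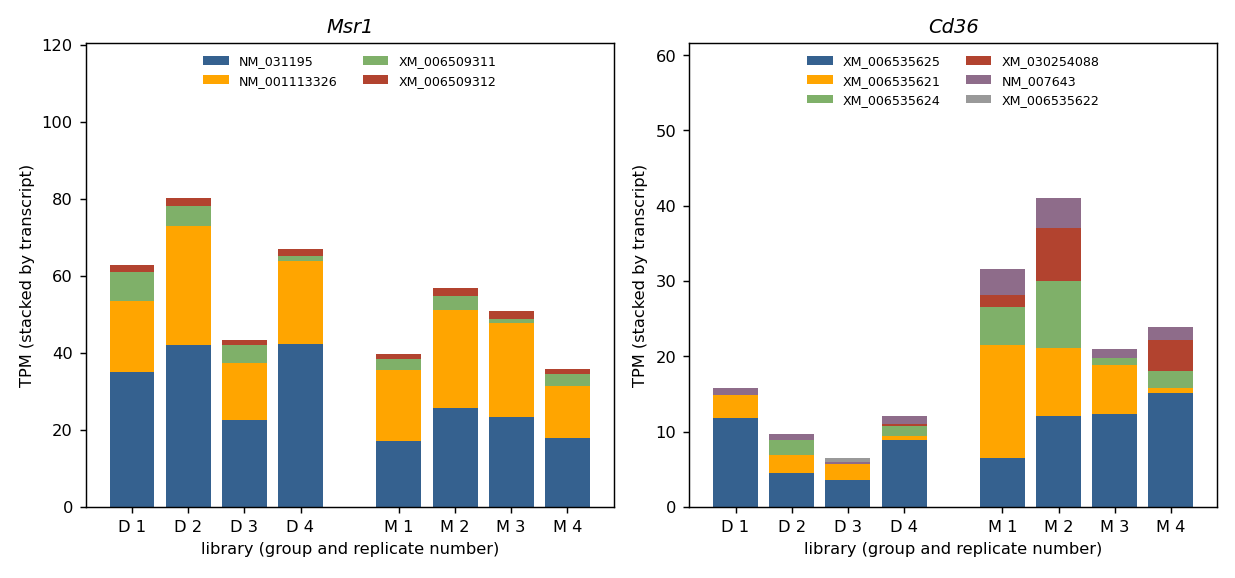
TPM of each Msr1 (left) and Cd36 (right) transcript, stacked, in each D and M library. The blue Msr1 segment, NM_031195, reaches 42.0 and 42.3 TPM in D replicates 2 and 4, while the orange NM_001113326 has similar means in both groups; for Cd36 the whole stack is lower in D, and its make-up varies between replicates.

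Other members offered less. Scarb1 NM_016741 held 94.9% of Scarb1 TPM in D and 93.7% in M, and the alternative-tail NM_001205082 averaged 1.98 ± 0.375 TPM in D and 2.65 ± 1.24 TPM in M. For Olr1, NM_138648 (363 codons) had 5.61, 7.33, 8.59 and 3.01 TPM in D, against 4.76, 5.47, 5.38 and 3.03 TPM in M. In both groups, replicate 4 was lowest for this transcript and highest for the short NM_001301096 (155 codons; 1.48 TPM in D, 2.48 TPM in M) and for predicted XM_017321300 (2.52 TPM in D, 1.54 TPM in M). Predicted XM_017321299 held 7.84% of Olr1 TPM in D and 4.80% in M. Vldlr and Cd163 were split over low rows. Curated Vldlr NM_001161420 was listed at 0 in all D libraries, against 0.44, 0.34, 0 and 0.66 TPM in M, and NM_001347441 only in M replicate 2 (0.42 TPM). The most abundant Vldlr rows were predicted XM_006526918 (0.570 ± 0.575 TPM in D, 0.215 ± 0.430 TPM in M) and XM_030250867 (0.563 ± 0.256 TPM in D, 0.470 ± 0.354 TPM in M), beside XM_030250865 (0.30 TPM, only in D replicate 3). The Vldlr rows cover 5 of 13 RefSeq transcripts. Cd163 was led by predicted XM_017321840 (0.548 ± 0.283 TPM in D, 0.768 ± 0.291 TPM in M), with NM_053094 (1121 codons), NM_001170395 (1159 codons) and XM_006506800 each at 0.238 TPM or less on average in either group. Scarb2, Cd68, Lrp1 and Marco had a single row each.

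Around the members, genes of the same systems were described by list, each with its background of 17.4% higher and 17.3% lower. Of 9 tested genes among 14 other scavenger receptors, 4 rose and none fell (median log2 0.38, against -0.03 over all genes). Clec7a, the beta-glucan receptor dectin-1, was at 242 ± 96.8 CPM in D and 79.6 ± 22.3 CPM in M (1.61 ± 0.35; edgeR adjusted p = 0.00932). Ager, the receptor for advanced glycation end products, was at 12.2 to 22.6 CPM in D and 9.23 to 10.9 CPM in M (0.70 ± 0.17; edgeR adjusted p = 0.00935). Stabilin-1 (Stab1) was at 61.9 ± 5.98 CPM in D and 46.3 ± 7.18 CPM in M (0.42 ± 0.12), and Scarf1, an endothelial and phagocyte receptor, at 4.40 ± 0.867 CPM in D and 2.81 ± 0.480 CPM in M (0.64 ± 0.19). The last pair lost their edgeR calls without D replicate 2 (adjusted p = 0.0509 for Stab1 and 0.0709 for Scarf1), Scarf1 also without M replicate 2 (0.0646) or M replicate 3 (0.0509). In the LDL receptor family with its chaperones and degraders, 1 of 14 tested rose, 1 fell and 12 did not pass. Sorl1, a sorting receptor, was at 2041 ± 397 CPM in D and 1399 ± 156 CPM in M (0.55 ± 0.14). Lrp6, a Wnt co-receptor, was at 35.6 ± 1.67 CPM in D and 45.1 ± 1.24 CPM in M (-0.34 ± 0.06).

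Genes of ligands and ligand handling split, with 2 of 11 tested higher and 4 lower (median -0.09). Haptoglobin (Hp), which delivers haemoglobin to Cd163, was at 816 ± 177 CPM in D and 439 ± 67.9 CPM in M (0.89 ± 0.16; edgeR adjusted p = 0.00275). Hmox1, the haem-degrading enzyme downstream of that uptake, was at 222 ± 49.1 CPM in D and 417 ± 108 CPM in M (-0.91 ± 0.20; edgeR adjusted p = 0.00702). Reelin (Reln), a ligand of Vldlr, was at 2.15 ± 1.20 CPM in D and 16.8 ± 3.92 CPM in M (-2.95 ± 0.37; edgeR adjusted p = 0.000551). Apoe also fell, and Apoc2, an activator of lipoprotein lipase, rose. Cd163 and Vldlr did not pass the test beside these ligand genes, and a difference of ligand from receptor was not tested.

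Among 11 partners and signalling genes of Cd36, 4 rose and 2 fell (median -0.01). The 3 Toll-like receptors of the list rose. Tlr2 was at 185 ± 12.3 CPM in D and 108 ± 11.1 CPM in M (0.78 ± 0.09; edgeR adjusted p = 0.000147), Tlr4 at 116 ± 14.9 CPM in D and 78.1 ± 6.69 CPM in M (0.57 ± 0.10), and Tlr6 at 50.5 ± 10.8 CPM in D and 32.4 ± 1.90 CPM in M (0.64 ± 0.14). Of the kinases of the SRC family, Lyn rose while Src and Fyn fell; Src was at 5.85 ± 1.58 CPM in D and 16.8 ± 2.71 CPM in M (-1.52 ± 0.19; edgeR adjusted p = 0.000334). The Src call was lost with curated transcripts alone, at a log2 fold change of -2.45 (edgeR adjusted p = 0.160). The palmitoyltransferases Zdhhc4 and Zdhhc5 and the lipid chaperones Fabp4 and Fabp5 did not pass.

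Of 16 transcription factors known to act on members, 7 rose and 1 fell (median 0.17). Maf was at 30.0 ± 3.65 CPM in D and 14.9 ± 1.46 CPM in M (1.01 ± 0.11; edgeR adjusted p = 0.000133). Hif1a, the hypoxia factor, was at 200.0 ± 37.5 CPM in D and 129 ± 13.5 CPM in M (0.63 ± 0.13). Nfe2l2, which encodes NRF2, was at 352 ± 8.59 CPM in D and 302 ± 15.4 CPM in M (0.22 ± 0.06); this small difference lost its edgeR call with library totals as the only scaling (0.12, adjusted p = 0.158). Spi1, Stat6 and Mitf also rose, and Srebf2, the regulator of cholesterol synthesis, fell. Pparg, the nuclear receptor best known for inducing Cd36, was at 2.12 ± 0.590 CPM in D and 3.30 ± 0.928 CPM in M and did not pass (-0.64 ± 0.25; edgeR adjusted p = 0.0751).

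In the lysosomal list beside Scarb2 and Cd68, 2 of 11 genes rose and 1 fell (median -0.09). Lamp2, a lysosomal membrane protein, was at 534 ± 40.3 CPM in D and 393 ± 21.6 CPM in M (0.44 ± 0.08; edgeR adjusted p = 0.00200), and the protease gene Ctsl at 170 ± 27.2 CPM in D and 119 ± 9.45 CPM in M (0.51 ± 0.11). Lamp5 was at 0.255 ± 0.286 CPM in D and 1.17 ± 0.526 CPM in M (-2.14 ± 0.62), and lost its call without D replicate 4 (edgeR adjusted p = 0.0653), M replicate 1 (0.0683) or M replicate 2 (0.0593). Of 8 tested adaptors and proteases, 4 rose and 1 fell (median 0.17). Dab2, an endocytic adaptor for LDL receptor family tails, was at 89.2 ± 24.9 CPM in D and 41.5 ± 12.9 CPM in M (1.10 ± 0.26; edgeR adjusted p = 0.0131). Furin, which processes the Lrp1 precursor, was at 249 ± 29.4 CPM in D and 196 ± 5.60 CPM in M (0.35 ± 0.09), and the shedding protease Adam17 at 173 ± 16.0 CPM in D and 141 ± 5.43 CPM in M (0.29 ± 0.08). Apbb1, an adaptor that binds receptor tails, was at 0.521 ± 0.0690 CPM in D and 1.59 ± 0.719 CPM in M (-1.60 ± 0.34), and Reps1 rose.

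Some of these calls were lost with fewer transcripts counted, mostly at a similar or larger fold change. The most abundant transcript of each gene alone ended those of Ager, Stab1, Scarf1, Sorl1, Src, Hif1a and Adam17 (edgeR adjusted p = 0.0638 to 0.327). Their log2 fold changes were then 0.61 for Ager, 0.41 for Stab1, 0.63 for Scarf1, 0.37 for Sorl1, -2.46 for Src, 0.76 for Hif1a and 0.25 for Adam17. Curated transcripts alone also ended those of Scarf1, Ctsl and Adam17 (edgeR adjusted p = 0.0664, 0.133 and 0.112), at 0.65, 0.55 and 0.30 on the log2 scale. In limma on log2(TPM + 1), Stab1 (adjusted p = 0.0554), Adam17 (0.0515) and Nfe2l2 (0.138) did not pass. Nfe2l2 also lost its edgeR call without D replicate 2 (adjusted p = 0.0612), M replicate 1 (0.0528) or M replicate 4 (0.0765). Clec7a, Lrp6, Hp, Hmox1, Reln, Tlr2, Tlr4, Tlr6, Maf, Lamp2, Dab2 and Furin kept their calls in every alternative that gave them a value.

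For each called member, the 3 genes with the most similar profile were found among 11378 genes, as the smallest root mean square difference in centred log2 CPM over the 8 libraries. The nearest to Cd36 were Rnase6 (0.192), Kynu (0.196) and Plxna4 (0.251), against a median of 0.777 over all genes compared. Rnase6 had 26.9, 16.5, 11.4 and 22.6 CPM in D, against 48.1, 48.7, 38.8 and 37.8 CPM in M. As for Cd36, D replicate 3 was lowest and D replicate 1 highest among D libraries. The nearest to Msr1 were Traf1 (0.137), Gpr174 (0.155) and Olfr1033 (0.165; median 0.456), and the nearest to Olr1 were Qsox1 (0.0485), Mapk4 (0.0585) and Nedd9 (0.0614; median 0.355). All 9 profiles share these libraries and the split into D and M.

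**Figure D5:**
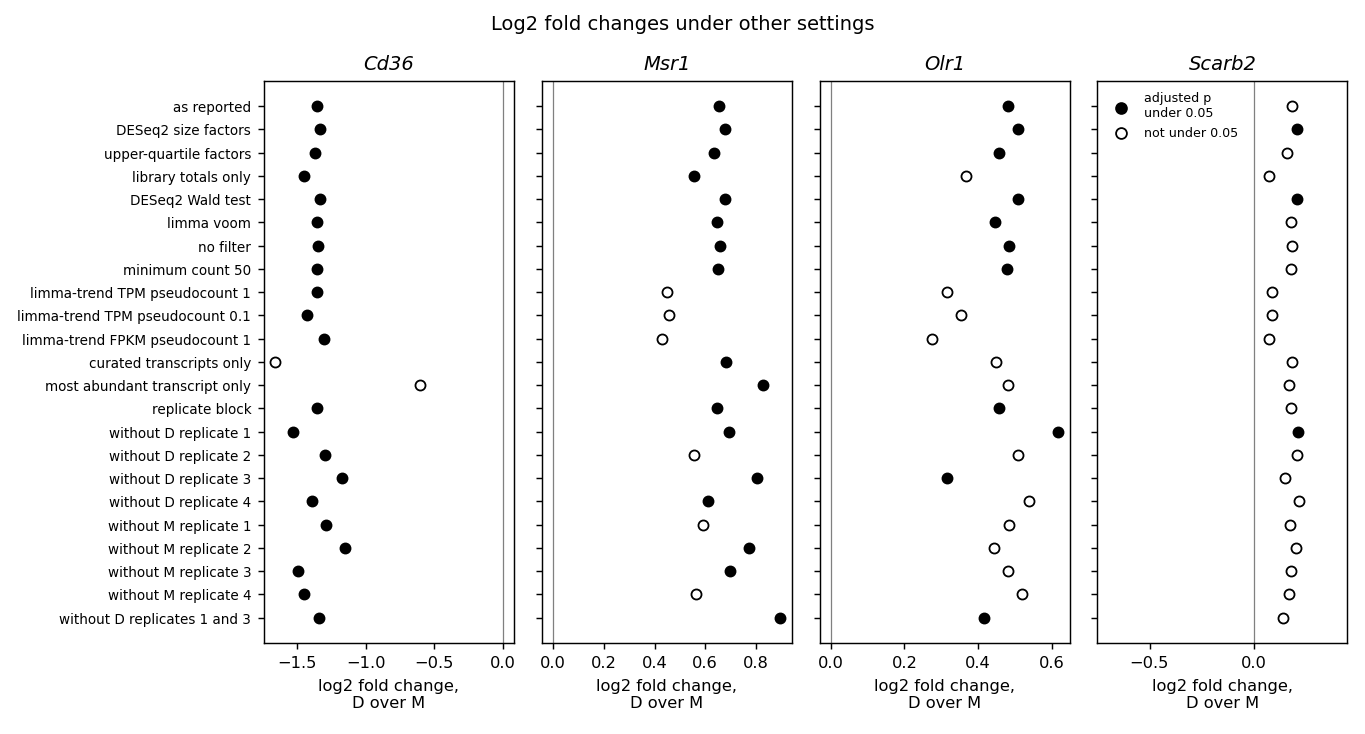
Log2 fold change of D over M for Cd36, Msr1, Olr1 and Scarb2 under the settings tried, with filled points where the adjusted p is under 0.05. Cd36 stays below 0 and Msr1, Olr1 and Scarb2 above 0 in every setting drawn, while filled and open points alternate for Olr1 and Msr1.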

How the data were processed

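The members and all gene lists were chosen with earlier results of these data known, so none is independent support. Polyadenylated RNA was sequenced; the submitters' processing notes name SOAPnuke 1.5.6, an aligner spelled HISTA2 2.1.0, and the build mm10 (GRCm38). Neither the quantifier nor the use of strand in counting is given in the sources used here, and lncRNA genes overlap several members. Per the file headers, the deposited values are estimated counts for each RefSeq transcript without normalization, with TPM (length-scaled by the authors to an equal total in every library) and FPKM (divided by the authors for length and sequencing depth) beside them. Another 8 per-sample columns of the authors' normalized counts and 8 of group means were not used.

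Estimated counts were summed per gene, rounded to whole numbers and tested with edgeR 4.0.16 in R 4.3.3: TMM factors, robust quasi-likelihood fit on group only, filterByExpr (minimum count 10, minimum total 15), Benjamini-Hochberg adjustment over all tested genes, threshold 0.05. Transcripts were tested the same way. CPM uses TMM-scaled library sizes; the biological coefficient of variation was 12.4%. Intervals are for the log2 fold change and rest on the spread between libraries. Each pair of replicates differed beyond sampling noise, so all 8 libraries were kept as separate samples. Symbols matched for 17836 genes in RefSeq. Named genes were all members, up to 4 called genes with the lowest p of each pathway list, transcripts with at least 5% of a member's TPM, and the 3 most similar profiles. Other genes named without the rule were chosen after their values were seen. Profiles used log2(CPM + 0.5) for genes with a mean log2 CPM of at least 1. Some genes of these lists are counted but not reported here by name. Scripts were tested on simulated data.

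Same-numbered D and M libraries correlated in their deviations from the group means at 0.115 to 0.182, and other pairs at -0.178 to 0.0735. Each same-numbered pair was above 0.1, so a weak pairing by number is possible from the data, but the labels do not explain the numbers. The reported fits therefore left pairing out, and a fit with the replicate number as a block is given as an alternative. Alternatives were other scaling factors, DESeq2 1.42.0, limma 3.58.1 (voom, and limma-trend on log2 TPM or FPKM with pseudocounts 1 and 0.1 and a minimum mean of 1), other filters, fewer transcripts, the replicate block, and each library left out. Leaving out D replicates 1 and 3 together was chosen after seeing the data.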

Additional observations from a re-analysis of the deposited data

Results flagged for a closer look

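Of 94 groups of 4 libraries checked, 1 held a value flagged as far from the others, where chance alone would mark about 1 in 20. The predicted Vldlr transcript XM_006526918 was at 0.86 TPM in M replicate 3, while M replicates 1, 2 and 4 were at 0. In D the same transcript was at 0.20, 1.25, 0.83 and 0 TPM. In M replicate 3 it held all Vldlr TPM. A lone value beside values of 0 takes up the whole range of its group, whatever its size. The 1 flag does not cover every such value. Other rows with this pattern had too few counts for a test and were not flagged. Examples are Olr1 NM_001301096 (2.48 TPM in M replicate 4, 0 in the other M libraries) and Vldlr NM_001347441 (0.42 TPM in M replicate 2, 0 in the other M libraries).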

How the results depend on the processing

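The count of members higher in D (2) was 3 with DESeq2 size factors or DESeq2's Wald test, where Scarb2 passed as well. It was 1 with library totals only, curated transcripts or the most abundant transcript. With limma on TPM (pseudocounts 1 and 0.1) or FPKM it was 0, and with a library left out it ran from 0 to 3. The count lower (1) was 0 with curated transcripts or the most abundant transcript. Over the whole table, 2233 genes were higher; limma gave 1460 and 1456 on TPM and 1356 on FPKM, curated transcripts 1325 and the most abundant transcript 1088. The 2223 lower became 3346 with library totals only, 1206 with curated transcripts and 964 with the most abundant transcript. Higher calls were 50.1% of all calls with TMM, 31.3% with library totals and 33.1% on TPM; the median of all genes moved to -0.14 with library totals. With a library left out, member transcripts called ran from 0 to 1 (Msr1, without D replicate 3) and members with a usage call from 0 to 1 (Vldlr, without M replicate 3). Signs turned for Cd163 (0.21 with curated transcripts, 0.14 without D replicates 1 and 3, and -0.23 to 0.0204 with a library left out, above 0 without D replicate 3) and Vldlr (-0.0413 to 0.38 with a library left out, below 0 without D replicate 2), neither past the threshold; the cause was not tested. Of 22 alternatives each, Cd36 kept its call in 20, Msr1 in 16 and Olr1 in 10. The fit with the replicate block changed no member's call, with 2 higher and 1 lower, the same counts as without D replicates 1 and 3. Marco, with 3 counts in all, could not be tested at this depth.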
